A study of Homo sapiens with 12 samples.

Results

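The genes described here encode 3 matrix metalloproteinases (MMP1, MMP2 and MMP14), both plasminogen activators (PLAU and PLAT), the receptor of one of them (PLAUR) and 3 tissue inhibitors of metalloproteinases (TIMP1, TIMP2 and TIMP3). These 9 genes were taken by name from the 27412 genes with counts, and 8 of them were among the 14950 genes tested. RNA sequencing was carried out on 12 libraries of MDA-MB-231, an established human triple-negative breast cancer cell line, grown in triplicate dishes. Each of 4 groups held 3 libraries: vehicle (DMSO and water, which the compounds were given in), 2 µM BITC, 1 µM ZA, and 2 µM BITC with 1 µM ZA (BITC+ZA), all for 24 h. BITC was read as benzyl isothiocyanate, an electrophilic compound of cruciferous plants, and ZA as zoledronic acid, a bisphosphonate used against bone metastasis, since the labels give only the abbreviations. The design is limited to 1 cell line, 1 dose of each compound and 1 time, and the cells were detached with trypsin before extraction. The labels name triplicate dishes and no further separation of cultures; p-values thus measure the spread between these dishes, which may be technical.

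Tumour cells cut the matrix around them with 2 linked enzyme systems. In the plasminogen system, urokinase (PLAU), held at the cell surface by its receptor (PLAUR), and tissue plasminogen activator (PLAT) turn plasminogen into plasmin, a broad protease. Metalloproteinases cleave collagens and other matrix proteins, and the TIMP proteins block them; MMP14 sits in the membrane and, with TIMP2 as an adaptor, activates the precursor of MMP2. MDA-MB-231 cells are widely used as an invasive model in which urokinase and its receptor are expressed. Messenger RNA was measured here, not protein or enzyme activity.

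The library totals lay between 15874857 and 17375664 counts. Of 8 mesenchymal markers of the line, 7 had a mean of at least 1 FPKM (fragments per kilobase, scaled by library total), with SPARC below that. Of 6 luminal markers ESR1, PGR and FOXA1 were below 0.1 FPKM or had no counts, while KRT19 (99.8 FPKM), ERBB2 (8.76) and GATA3 (5.23) were present. Of 6 epithelial junction markers CDH1 and ESRP1 were below 0.1 FPKM, while CLDN4 (32.7 FPKM), EPCAM (6.07), CLDN7 (4.15) and CLDN3 (3.67) were present. Of 6 fibroblast markers COL3A1, DCN and PDGFRA were below 0.1 FPKM or without counts, LUM was at 0.158 FPKM, COL1A1 at 0.940 and COL1A2 at 1.10, and of 6 leukocyte markers PTPRC, CD68, CD3E, LYZ and ITGAM were below 0.1 FPKM. The summed level of 6 leukocyte markers was 34.3 to 35.7 FPKM in vehicle, 29.3 to 33.8 in BITC, 32.9 to 34.1 in ZA and 28.9 to 30.9 in BITC+ZA, with CD74 alone above 1 FPKM. The summed level of the 8 mesenchymal markers was 987 to 997 FPKM in vehicle, 937 to 962 in BITC, 957 to 992 in ZA and 903 to 909.9 in BITC+ZA. Mitochondrial reads made up 3.48 to 3.60% of the counts in vehicle, 3.78 to 4.04% in BITC, 3.88 to 4.95% in ZA and 4.73 to 4.88% in BITC+ZA. Libraries also differed in how their deviations from the mean tracked the GC content of genes: Spearman's rho over all genes tested was −0.44 to −0.01 in vehicle and BITC, 0.21 to 0.33 in BITC+ZA, and 0.42 and 0.43 in ZA libraries 2 and 3, against −0.38 in ZA library 1. ZA library 1 thus stood apart from the others of its group, and calls that were gained without it are named beside the result, with the value after a correction for GC content and length where that differs. The part of marker levels, mitochondrial share and GC trend in the results below was not tested, apart from the GC and length correction where it is named.

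Promoter sequences were given for 5 of the 9 genes (PLAU, PLAUR, MMP14, TIMP1 and TIMP3) in the RefSeq table of GRCh38.p14. Those of PLAU, the enzyme gene with promoter sequence that changed most, and of its receptor gene PLAUR, which was not called lower, are shown as the 250 bases before each listed start, 5′ to 3′ on the strand of the gene. Capitals mark the matches to 3 motifs, searched on both strands: AP-1 (TGAGTCA), ETS (CAGGAAG) and the core of the antioxidant response element (TGACNNNGC). The motifs as written do not overlap each other in these windows.
PLAU first start, plus strand, chr10:73910360-73910609: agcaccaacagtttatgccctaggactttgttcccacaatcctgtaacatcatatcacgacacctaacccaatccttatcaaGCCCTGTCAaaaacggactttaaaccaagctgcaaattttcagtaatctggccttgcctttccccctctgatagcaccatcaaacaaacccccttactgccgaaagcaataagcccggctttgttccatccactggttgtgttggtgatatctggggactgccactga
PLAU second start, plus strand, chr10:73910882-73911131: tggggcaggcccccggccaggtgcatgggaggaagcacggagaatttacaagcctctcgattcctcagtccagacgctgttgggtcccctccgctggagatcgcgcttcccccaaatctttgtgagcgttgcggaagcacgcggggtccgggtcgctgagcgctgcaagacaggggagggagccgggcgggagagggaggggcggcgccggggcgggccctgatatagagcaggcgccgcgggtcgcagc
PLAUR, minus strand, chr19:43670170-43670419: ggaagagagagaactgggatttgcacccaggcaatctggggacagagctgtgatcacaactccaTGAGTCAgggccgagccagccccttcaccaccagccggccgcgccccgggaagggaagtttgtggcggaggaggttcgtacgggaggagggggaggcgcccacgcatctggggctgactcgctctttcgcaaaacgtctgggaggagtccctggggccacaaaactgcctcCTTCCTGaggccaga
The first PLAU window held 1 match to the antioxidant response core, on the opposite strand at −168 to −160 from the start, and the second window held none of the 3 motifs. The PLAUR window held 1 AP-1 match at −186 to −180 and 1 ETS match on the opposite strand at −15 to −9. TIMP1 held 1 ETS match at −88 to −82. The windows of MMP14 and TIMP3 held no match. Over all 35116 windows of 300 bases (250 before and 50 after a start), 4.95% held the AP-1 motif, 12.7% the ETS motif and 13.3% the antioxidant response core. A match describes the letters of the window and says nothing of binding.

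Compared per gene length in vehicle, TIMP1, PLAU and TIMP2 lay highest. TIMP1 averaged 129 ± 6.53 FPKM (SD, n = 3), PLAU 112 ± 1.29, TIMP2 109.5 ± 2.77 and MMP14 79.8 ± 1.95. TIMP3 followed at 32.3 ± 0.373 FPKM, PLAT at 20.5 ± 0.566, PLAUR at 15.5 ± 0.198 and MMP1 at 1.07 ± 0.0652. In this order PLAU and TIMP2 had overlapping ranges, while the ranges of each other pair of neighbours did not overlap. MMP2 was at 0 in every vehicle library.

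**Figure D1:**
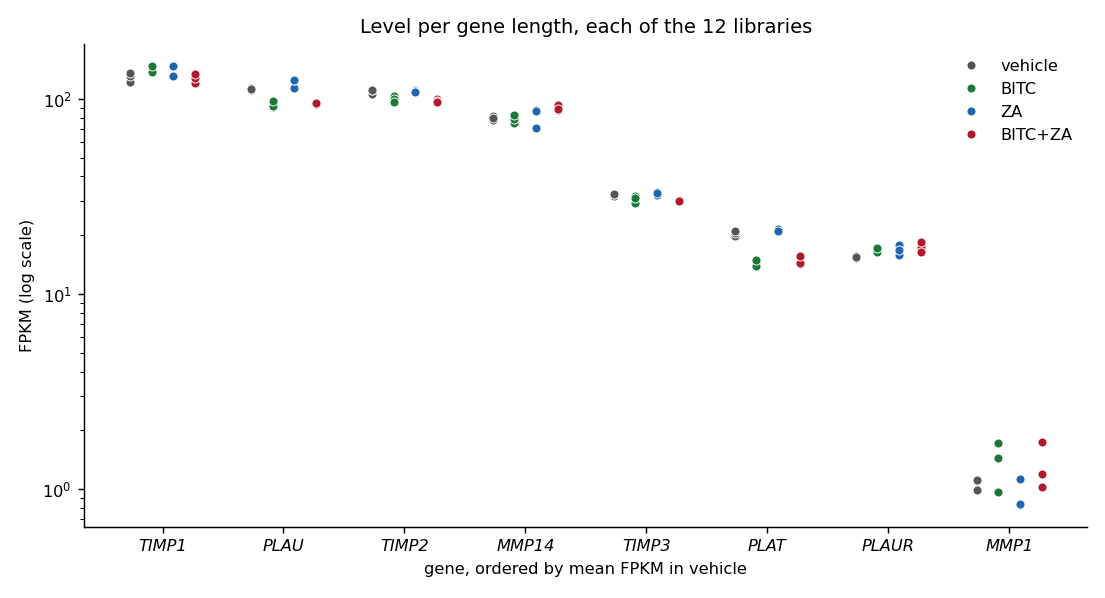
Level per gene length (FPKM, log scale) of 8 genes in each of the 12 libraries, coloured by treatment; MMP2, at or near 0, is left out. The 3 TIMP1 points of vehicle lie between 122 and 135 FPKM, and PLAT lies above PLAUR in vehicle and ZA but below it in BITC and BITC+ZA.

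The order of some genes differed between treatments. PLAT was above PLAUR in vehicle (20.5 against 15.5 FPKM) and in ZA (21.2 ± 0.221 against 16.8 ± 0.925), without overlap. In BITC, PLAUR stood at 16.99 ± 0.429 FPKM and PLAT at 14.4 ± 0.537, and in BITC+ZA PLAUR stood at 17.4 ± 1.10 and PLAT at 14.8 ± 0.847, again without overlap. PLAU had 7.25 ± 0.0189 times the FPKM of PLAUR in vehicle and 7.20 ± 0.200 times in ZA, but 5.50 ± 0.217 times in BITC and 5.45 ± 0.357 times in BITC+ZA. The ratio thus lay between 7.03 and 7.42 in the 6 libraries without BITC and between 5.08 and 5.78 in the 6 with it. Summed over both activators, the level was 133 ± 1.61 FPKM in vehicle, 108 ± 3.86 in BITC, 142 ± 6.21 in ZA and 109.6 ± 0.940 in BITC+ZA. The summed level of the 3 inhibitors overlapped between vehicle (260.3 to 279 FPKM), BITC (267 to 275) and ZA (271 to 291), and in BITC+ZA it was 251 to 260.5.

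PLAT, PLAU and, in single comparisons, TIMP2 and MMP14 were the genes that passed the test. PLAT, which encodes tissue plasminogen activator (chromosome 8, 42175233 to 42207724, minus strand, GRCh38), fell by 29.2% with BITC and fell by 26.3% with BITC+ZA. PLAU, which encodes urokinase (chromosome 10, 73909177 to 73917497, plus strand), fell by 16.2% with BITC and fell by 13.6% with BITC+ZA. Neither was called with ZA alone, nor in BITC+ZA against BITC. In BITC against vehicle 2 of the 8 tested genes were called (edgeR's quasi-likelihood test, Benjamini-Hochberg adjusted p below 0.05 over all genes), both lower, where 1.78% of all genes tested were called and 1.00% were called lower. In BITC+ZA against vehicle the same 2 genes were called, both lower, beside 4.90% of all genes and 2.41% called lower; both comparisons use the same vehicle libraries. The median log2 fold change was −0.04 over the 8 genes and 0.00 over all genes for BITC, and −0.03 and 0.00 for BITC+ZA.

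PLAT had 131, 137 and 139 CPM (counts scaled by library size, normalised by the trimmed mean of M values) in vehicle libraries 1 to 3. It had 95.3, 92.7 and 99.9 CPM in BITC, 142, 145 and 141 in ZA, and 96.4, 97.2 and 106 in BITC+ZA. All 6 libraries with BITC lay below all 6 without it, and the groups with BITC overlapped each other. The log2 fold change against vehicle was −0.50 (SE 0.05, adjusted p = 1.05e-06 by edgeR) with BITC, where PLAT ranked 9 of all genes by p, and −0.44 (SE 0.05, adjusted p = 7.11e-06) with BITC+ZA, where it ranked 15. With ZA it was 0.07 (SE 0.05, adjusted p = 0.537), although the ZA libraries all lay above the vehicle libraries. BITC+ZA lay 0.51 below ZA on the log2 scale (−0.51, SE 0.05, adjusted p = 5.99e-07) and was not called against BITC (0.06, SE 0.05, adjusted p = 0.492; −0.05, adjusted p = 0.52, after the GC and length correction). The lower PLAT in culture may stand for fewer cells with the transcript or less of it per cell, which cannot be told apart in bulk RNA.

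PLAU had 329, 336 and 330.4 CPM in vehicle, 269.8, 275 and 289.7 in BITC, 341, 377 and 371 in ZA, and 289.6, 284 and 285 in BITC+ZA. Its 6 libraries with BITC also lay below its 6 libraries without it. The log2 fold change was −0.25 (SE 0.05, adjusted p = 0.00213 by edgeR) with BITC and −0.21 (SE 0.05, adjusted p = 0.00668) with BITC+ZA. With ZA, the 3 libraries lay above vehicle but the gene was not called (0.13, SE 0.05, adjusted p = 0.149); without ZA library 1 it was called (0.18, adjusted p = 0.000474), but after the GC and length correction it was not, with all libraries (0.06, adjusted p = 0.39) or without that one (0.06, adjusted p = 0.312). Against ZA, BITC+ZA was lower by a log2 fold change of −0.34 (SE 0.05, adjusted p = 3.78e-05). Against BITC it was not called (0.04, SE 0.05, adjusted p = 0.565, and −0.06, adjusted p = 0.226, after the GC and length correction). An exon region of 916 bases is shared with C10orf55 on the opposite strand, to which 1.51 CPM were assigned on average. The sources used here do not give the strand setting of the counting, so reads of the pair cannot be told apart with certainty.

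**Figure D2:**
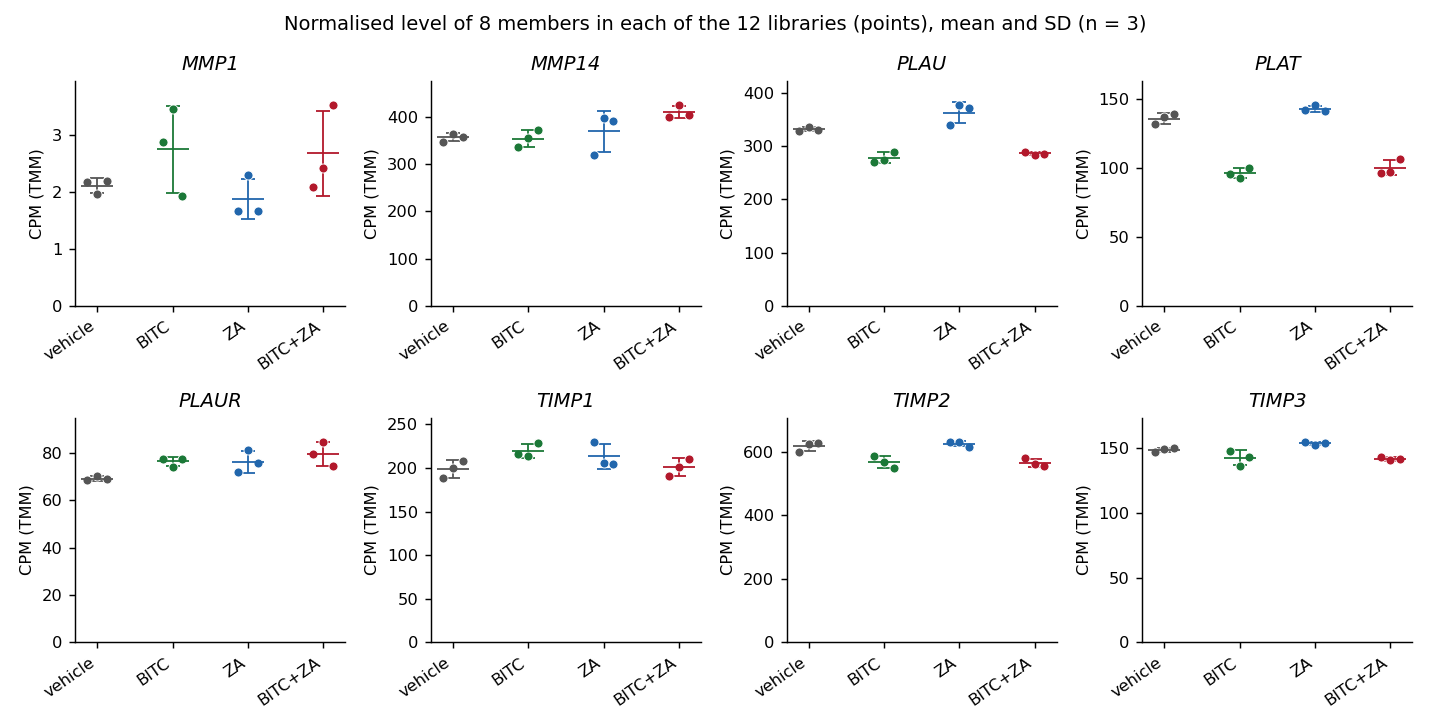
Normalised level (CPM) of 8 genes in each library (points, left to right library 1 to 3), with the group mean and SD (n = 3); each vertical axis starts at 0. PLAT and PLAU are lower in all libraries with BITC, between 92.7 and 106 CPM and between 269.8 and 289.7 CPM, than in those without it.

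The calls of PLAT and PLAU against vehicle under BITC and BITC+ZA, and in BITC+ZA against ZA and ZA against BITC, held in all 23 alternative analyses. The log2 fold change of PLAT over them was −0.53 to −0.45 with BITC and −0.50 to −0.42 with BITC+ZA, and that of PLAU −0.29 to −0.23 and −0.30 to −0.20. The authors' deposited table lists the log2 fold change of PLAT as −0.50 with BITC (adjusted p = 9.58e-19) and −0.44 with BITC+ZA (9.84e-16). For PLAU the authors' deposited table gives −0.25 (8.47e-10) and −0.21 (1.5e-10).

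PLAUR encodes the urokinase receptor (chromosome 19, 43646095 to 43670547, minus strand). It had 68.3, 70.1 and 69.0 CPM in vehicle, 77.6, 74.1 and 77.4 in BITC, 72.0, 81.1 and 75.6 in ZA, and 79.5, 84.7 and 74.5 in BITC+ZA. Every treated library lay above every vehicle library, and the treated groups overlapped each other. None of these differences passed the test: the log2 fold change was 0.14 with BITC (SE 0.06, adjusted p = 0.249 by edgeR), 0.14 with ZA (SE 0.06, adjusted p = 0.255) and 0.20 with BITC+ZA (SE 0.06, adjusted p = 0.0501). Just outside the threshold, the last was called in 7 of 23 alternatives, among them DESeq2 (0.20, adjusted p = 0.0385) and the omission of any one ZA library (adjusted p = 0.00439 to 0.0457). It was not called after the GC and length correction (0.12, adjusted p = 0.117), in any limma analysis or on leaving out any other library. The authors' deposited table lists it at 0.20 with an adjusted p of 0.0131. With ZA it was called without ZA library 1 (0.18, adjusted p = 0.02), but not after the correction, with all libraries (0.09, adjusted p = 0.453) or without that one (0.08, adjusted p = 0.485). With BITC it was called after the GC and length correction (0.18, adjusted p = 0.0272).

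Among the metalloproteinases, MMP14 encodes the membrane-bound collagenase MT1-MMP (chromosome 14, 22836557 to 22849027, plus strand). It had 347, 365 and 358 CPM in vehicle, 336, 355 and 371 in BITC, 319, 398 and 391 in ZA, and 399.9, 425 and 405 in BITC+ZA. The BITC+ZA libraries lay above all others, and vehicle, BITC and ZA overlapped each other. BITC+ZA was higher than BITC (log2 fold change 0.21, SE 0.06, adjusted p = 0.0246 by edgeR), which made MMP14 the 1 gene of the 8 called there, beside 14.7% of all genes and 6.60% called higher. That call ended in 11 of 23 alternatives, among them the GC and length correction (0.05, adjusted p = 0.452), which also cut the value by more than 1.5 times, and the omission of either of BITC libraries 1 and 2 or of any BITC+ZA library (adjusted p = 0.061 to 0.15). In the authors' deposited table BITC+ZA against BITC stands at 0.21 with an adjusted p of 6.47e-06. Against vehicle, BITC+ZA was not called (0.20, SE 0.06, adjusted p = 0.0583), but 10 of 23 alternatives called it, with 0.11 (adjusted p = 0.0412) after the GC and length correction, and the authors' deposited table lists 0.20 with an adjusted p of 1.15e-08. Against ZA, BITC+ZA was not called (0.15, SE 0.06, adjusted p = 0.147) but was after that correction (0.13, adjusted p = 0.00664, and 0.10, adjusted p = 0.0284, without ZA library 1 as well); without that library and uncorrected it was 0.05 (adjusted p = 0.469). ZA library 1, at 319 CPM, was the lowest of all 12; without it, ZA was higher than vehicle (0.15, adjusted p = 0.00453), against 0.05 (SE 0.06, adjusted p = 0.749) with it, and higher than BITC (0.16, adjusted p = 0.000893), against 0.06 (SE 0.06, adjusted p = 0.57) with it. After the GC and length correction neither was called: against vehicle the value was −0.03 (adjusted p = 0.792) with all libraries and 0.00 (adjusted p = 0.969) without that one, and against BITC −0.09 (adjusted p = 0.108) and −0.06 (adjusted p = 0.243). The ratio of MMP14 to TIMP2 in FPKM was 0.729 ± 0.00870 in vehicle, 0.789 ± 0.0636 in BITC, 0.747 ± 0.0936 in ZA and 0.916 ± 0.0434 in BITC+ZA, and the BITC+ZA libraries lay above all others.

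MMP1, an interstitial collagenase (chromosome 11, 102789920 to 102798160, minus strand), was at a low level, with 26 to 57 counts a library. Its level was 2.16, 1.95 and 2.19 CPM in vehicle, 2.87, 3.44 and 1.93 in BITC, 1.66, 2.28 and 1.67 in ZA, and 2.08, 2.42 and 3.52 in BITC+ZA. All 4 groups overlapped, and the gene was called in none of the 7 comparisons: its log2 fold change was 0.39 with BITC (SE 0.26, adjusted p = 0.491 by edgeR), −0.17 with ZA (SE 0.27, adjusted p = 0.829) and 0.34 with BITC+ZA (SE 0.26, adjusted p = 0.48). Leaving out 1 library moved these values by more than 1.5 times, to 0.19 without BITC library 2 and 0.58 without BITC library 3, to −0.34 without ZA library 2, −0.09 without ZA library 1 and −0.09 without ZA library 3, and to 0.10 without BITC+ZA library 3. With these SEs, a change of the size seen in PLAT would not have been resolved at this depth. MMP2, gelatinase A (chromosome 16, 55389700 to 55506691, plus strand), had 0 counts in all vehicle and BITC libraries, 1 count in each ZA library, and 1, 2 and 0 counts in BITC+ZA libraries 1 to 3. It was not tested. A count of 0 allows up to 3 counts, which is 0.0585 CPM over the 51307419 counts of the vehicle group and 0.0617 CPM over the 48602485 of the BITC group, for counting error only. The 3 counts of each ZA-treated group are at that limit, so no fold is given. MMP1 shares 150 exon bases with the pseudogene WTAPP1 on the opposite strand, and MMP2 shares 174 with AC007336.3 on the same strand. Neither WTAPP1 nor AC007336.3 is among the genes with counts.

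Of the 3 inhibitors, TIMP2 was called in 2 of the 7 comparisons and TIMP1 and TIMP3 in none. TIMP2, the adaptor of MMP14 (chromosome 17, 78852977 to 78925387, minus strand), had 599.8, 625 and 629 CPM in vehicle, 585, 568 and 549.9 in BITC, 631, 629 and 615 in ZA, and 579.9, 560.4 and 555 in BITC+ZA. The 6 libraries with BITC lay below the 6 without it, as for PLAT and PLAU, but by less. TIMP2 was lower in BITC+ZA than in ZA (log2 fold change −0.15, SE 0.04, adjusted p = 0.0346 by edgeR) and higher in ZA than in BITC (0.14, SE 0.04, adjusted p = 0.0335). The first call ended in 9 and the second in 12 of 23 alternatives, for example on leaving out ZA library 2 (adjusted p = 0.0684 and 0.111) or BITC+ZA library 2 (0.13 and 0.0509). In the authors' deposited table neither passed, with adjusted p of 0.085 and 0.113. Against vehicle it was not called with BITC (−0.12, SE 0.04, adjusted p = 0.151) or BITC+ZA (−0.13, SE 0.04, adjusted p = 0.0751), whereas the authors' deposited table lists both at the same log2 fold changes with adjusted p of 0.00384 and 2.89e-05. Without ZA library 1 both were called (−0.12, adjusted p = 0.00612, and −0.13, adjusted p = 0.00231). DESeq2 called both with all libraries (adjusted p = 0.0383 with BITC and 0.0128 with BITC+ZA). After the GC and length correction with all libraries, BITC+ZA was called (−0.16, adjusted p = 0.000673) and BITC was not (−0.10, adjusted p = 0.0895). Corrected and without ZA library 1, both BITC (−0.10, adjusted p = 0.0223) and BITC+ZA (−0.16, adjusted p = 8.71e-06) were called. Exon regions are shared with AC022966.1 on the opposite strand (367 bases) and CEP295NL on the same strand (198 bases, 0.21 CPM).

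TIMP1, a secreted inhibitor (chromosome X, 47582313 to 47586789, plus strand), had 188, 201 and 208 CPM in vehicle, 216, 214 and 229 in BITC, 230.1, 206 and 204 in ZA, and 191, 202 and 211 in BITC+ZA. Its BITC libraries lay above those of vehicle and of BITC+ZA, and the other groups overlapped. No difference was called: 0.14 with BITC (SE 0.05, adjusted p = 0.204 by edgeR), 0.10 with ZA (SE 0.05, adjusted p = 0.395) and 0.01 with BITC+ZA (SE 0.05, adjusted p = 0.918), and −0.13 in BITC+ZA against BITC (SE 0.05, adjusted p = 0.112). Without ZA library 1, the first and the last of these were called (0.14, adjusted p = 0.0138, and −0.13, adjusted p = 0.0105), and the value with ZA was 0.05 (adjusted p = 0.548). The authors' deposited table lists BITC against vehicle at 0.14 with an adjusted p of 0.0291, and BITC+ZA against BITC at −0.13 with 0.0219. After the GC and length correction without ZA library 1, the values with ZA and with BITC+ZA changed direction and were called (−0.13, adjusted p = 0.0248, and −0.13, adjusted p = 0.00584), and BITC+ZA and ZA were both lower than BITC (−0.31, adjusted p = 3.59e-11, and −0.32, adjusted p = 7.67e-10). With all libraries, the corrected values against vehicle were 0.00 with ZA (adjusted p = 0.993) and −0.12 with BITC+ZA (adjusted p = 0.521), not called. TIMP3, which binds to the matrix (chromosome 22, 32801701 to 32863043, plus strand), had 147, 149 and 150.0 CPM in vehicle, 148, 136 and 143 in BITC, 155, 152 and 154 in ZA, and 143, 141 and 141 in BITC+ZA. The ZA libraries were the highest and those of BITC+ZA lay below vehicle, yet no comparison called it: −0.06 with BITC (SE 0.05, adjusted p = 0.57), 0.05 with ZA (SE 0.05, adjusted p = 0.694) and −0.07 with BITC+ZA (SE 0.05, adjusted p = 0.427). After the GC and length correction it was called lower in BITC+ZA than in ZA (−0.13, adjusted p = 0.0247) and higher in ZA than in BITC (0.13, adjusted p = 0.0217).

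**Figure D3:**
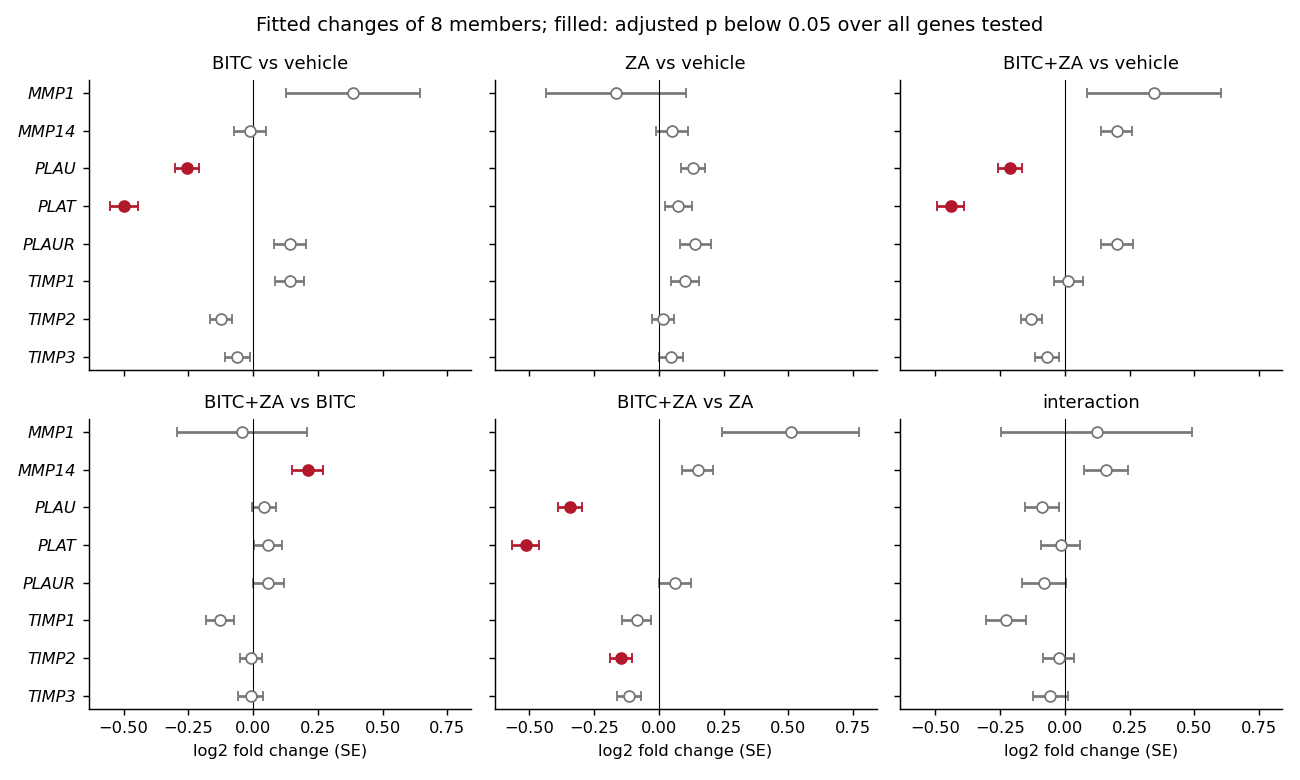
Log2 fold change with its SE for 8 genes in 5 pairwise comparisons and the interaction, filled where the adjusted p was below 0.05. PLAT and PLAU are filled left of 0 with BITC and BITC+ZA against vehicle and in BITC+ZA against ZA, TIMP2 is filled in the last of these and MMP14 in BITC+ZA against BITC, and no gene is filled for ZA against vehicle or for the interaction.

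Across ZA, 0 of 8 genes were called against vehicle by edgeR, beside 1.06% of all genes tested. At an unadjusted p below 0.05 there were 2, PLAU and PLAUR, and DESeq2 called 0. The ZA libraries did not overlap those of vehicle for 4 of the 8 genes (PLAU, PLAUR, PLAT and TIMP3, all higher), beside 16.4% of all genes. For BITC the ranges did not overlap for 5 genes (25.2% of all genes) and for BITC+ZA for 6 (32.8%). Without ZA library 1, 3 genes were called with ZA: PLAU, PLAUR and MMP14, all higher. In that setting 16.3% of all genes were called. After the GC and length correction without that library none of these 3 was called, with log2 fold changes of 0.06, 0.08 and 0.00. The 1 gene called there was TIMP1, lower, beside 5.47% of all genes.

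The 2 compounds together were compared with each alone, and the compounds with each other, in comparisons that share libraries. Against ZA, 3 of 8 genes were called, all lower (PLAT, PLAU and TIMP2), beside 6.95% of all genes and 3.64% called lower. Between the compounds, the same 3 genes were called, all higher in ZA than in BITC, beside 10.5% of all genes and 6.11% called higher. PLAT was higher in ZA by a log2 fold change of 0.57 (SE 0.05, adjusted p = 7.94e-08 by edgeR) and PLAU by 0.39 (SE 0.05, adjusted p = 6.41e-06). The interaction, which sets the log2 change with BITC+ZA against the single changes added up, was called for 0 of 8 genes, beside 2.84% of all genes. DESeq2 also called 0, and at an unadjusted p below 0.05 there was 1, TIMP1 (−0.23, SE 0.08, adjusted p = 0.103), which was called after the GC and length correction without ZA library 1 (−0.18, adjusted p = 0.0207). The interaction was −0.02 (SE 0.07, adjusted p = 0.941) for PLAT, and −0.12 (adjusted p = 0.29) after the correction. For PLAU it was −0.09 (SE 0.07, adjusted p = 0.516). After the correction the PLAU value was −0.12 (adjusted p = 0.104), and without ZA library 1 as well −0.13 (adjusted p = 0.0679). A departure from additive log2 changes was thus not resolved for either gene.

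**Figure D4:**
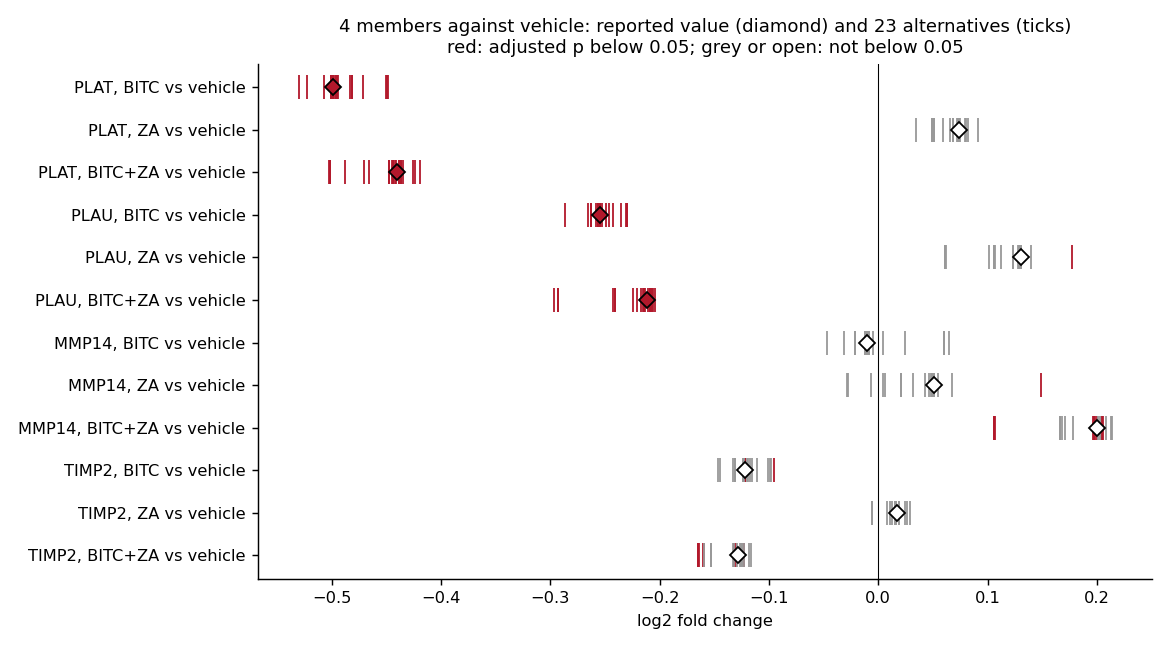
Log2 fold change against vehicle of PLAT, PLAU, MMP14 and TIMP2 as reported (diamonds) and in 23 alternative analyses (ticks), red where the adjusted p was below 0.05. The ticks of PLAT and PLAU with BITC or BITC+ZA are all red and left of 0, whereas MMP14 and TIMP2 pass in some alternatives and not in others.

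The genes whose log2 CPM followed the called members most closely over the 12 libraries were listed by Pearson correlation. These r values are descriptions: the 12 libraries share 4 treatments and the same normalisation. For PLAU they were SPINT2, an inhibitor of serine proteases (r = 0.99), and the keratins KRT7 (0.98) and KRT8 (0.98), and PLAT was close as well (0.95). SPINT2 averaged 132 CPM in vehicle, 107 in BITC, 149 in ZA and 108 in BITC+ZA. For PLAT they were TAGLN2, an actin-binding protein of the transgelin family (0.97), the RNA-binding protein gene KHDRBS1 (0.96) and MARCKS, a membrane-bound substrate of protein kinase C (0.95). MMP14 was closest to BMS1P2 (0.97), HGS (0.96) and LRRC14 (0.96), of which BMS1P2 is a pseudogene at 0.323 FPKM that can share reads with its relatives. TIMP2 was closest to the cytokine gene IL18 (0.95), INSIG1, a regulator of sterol synthesis (0.95), and the tubulin gene TUBA1A (0.94). Within the set, TIMP2 and TIMP3 also followed PLAT (0.89 and 0.85), while PLAUR and MMP14 did not (−0.49 and −0.21).

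Other genes of matrix proteolysis were read from 6 lists with 117 symbols, of which 85 were tested. With BITC, 6 of the 85 were called, 2 higher and 4 lower, beside 1.78% of all genes. With BITC+ZA, 9 were called, 3 higher and 6 lower, beside 4.90%. With ZA, edgeR called 0 of the 85, beside 1.06%. DESeq2 called 4 with ZA, beside 1.68% of all 27412 genes with counts. In edgeR 18 of the 85 had an unadjusted p below 0.05 with ZA. The share of all genes at that unadjusted threshold is not given, so such numbers are counts only. For edgeR calls in the single lists below, the same shares among all genes apply.

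Of 20 other metalloproteinases, 6 were expressed enough to be tested, and edgeR called 0 with BITC, ZA or BITC+ZA, as did DESeq2; 3, 0 and 1 had an unadjusted p below 0.05. The highest of them, the membrane type MMP15 at 1.76 FPKM and MMP19 at 1.23 FPKM, were far below MMP14. MMP15 stood at 9.05 ± 1.82 CPM in vehicle and 6.70 ± 0.558 in BITC (−0.43, SE 0.15, adjusted p = 0.162 by edgeR), and MMP19 at 5.10 ± 0.137 and 6.66 ± 0.774 (0.38, SE 0.15, adjusted p = 0.203). Of 15 ADAM and ADAMTS proteases tested, 2 fell with BITC and 2 with BITC+ZA. ADAMTS15, an aggrecan-cleaving protease, fell from 146 ± 4.78 CPM in vehicle to 111 ± 5.27 in BITC (−0.39, SE 0.07, adjusted p = 0.00112) and 121 ± 2.06 in BITC+ZA (−0.27, SE 0.07, adjusted p = 0.0134), the latter call ending without vehicle library 1 or 2 or any BITC+ZA library (adjusted p = 0.0597 to 0.0851). ADAMTS12 fell from 104 ± 3.91 to 86.0 ± 6.32 CPM in BITC (−0.27, SE 0.06, adjusted p = 0.0147), a call lost without vehicle library 1 or 2 or BITC library 3 (0.102 to 0.105). ADAM10, a sheddase of many surface proteins, fell from 318 ± 4.45 to 260.5 ± 7.56 CPM in BITC+ZA (−0.29, SE 0.05, adjusted p = 0.000879), a call that held in all 23 alternatives. The most abundant, ADAM9 (50.4 FPKM) and ADAM15 (25.4 FPKM), were not called against vehicle.

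In the plasminogen system, 15 partners and inhibitors were tested, with 1 called with BITC and 1 with BITC+ZA. SERPINB2, the plasminogen activator inhibitor PAI-2, rose from 26.2 to 32.3 CPM with BITC (0.30, SE 0.07, adjusted p = 0.033 by edgeR). This call held in 13 of 23 alternatives. Leaving out any vehicle or BITC library, or BITC+ZA library 2, ended it (0.0539 to 0.171). It was also lost after the GC and length correction (0.24, adjusted p = 0.055). ANXA2, a surface co-receptor of PLAT and plasminogen, fell from 1716 to 1543 CPM with BITC+ZA (−0.15, SE 0.04, adjusted p = 0.0228), a call lost without any one vehicle or BITC+ZA library (0.0513 to 0.115). ENO1, a glycolytic enzyme that also binds plasminogen, and F3, tissue factor, were the most abundant by FPKM (504 and 272) and were not called against vehicle. Of 11 inhibitors and activators of metalloproteinases, THBS1, the matrix protein thrombospondin, fell from 2864 to 2343 CPM with BITC (−0.29, SE 0.04, adjusted p = 0.000128) and to 2296 with BITC+ZA (−0.32, SE 0.04, adjusted p = 2.8e-05), and both calls held in all 23 alternatives. FURIN, the convertase that activates the MMP14 precursor, fell from 114 to 95.8 CPM with BITC (−0.26, SE 0.07, adjusted p = 0.0416; −0.16, adjusted p = 0.0269, after the GC and length correction) but stood at 113 CPM in ZA and in BITC+ZA, neither called; its call with BITC ended in 12 of 23 alternatives, among them the omission of any one vehicle, BITC or BITC+ZA library (0.0628 to 0.275). BSG, an inducer of metalloproteinases at 174 FPKM, was not called against vehicle.

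**Figure D5:**
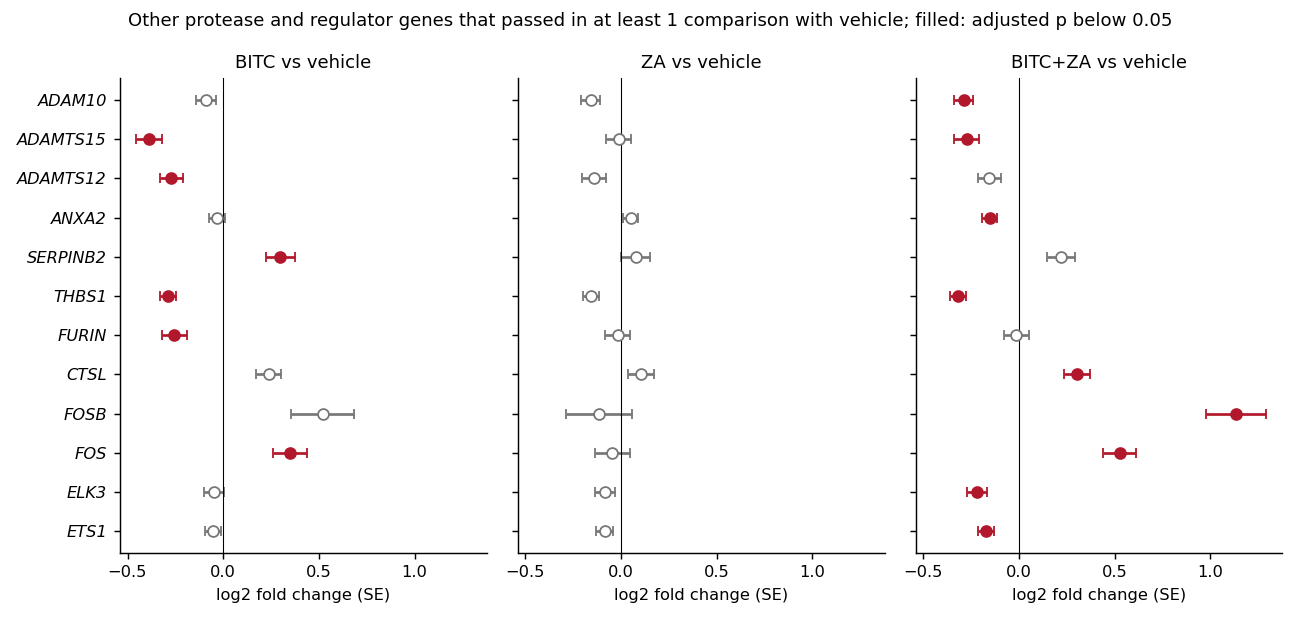
Log2 fold change with its SE of the 12 listed genes called in at least 1 comparison with vehicle, filled where the adjusted p was below 0.05. ADAMTS15 and THBS1 are filled left of 0 with BITC and BITC+ZA, and no gene is filled with ZA.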

How the data were processed

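The members and the 6 pathway lists were chosen with earlier results of these data known. Per the submitters' processing notes, reads were aligned with HISAT2 to GRCh38 (hg38) and compared with DESeq2 1.20.0; the sources used here do not give the counter, annotation or strand setting. Per the file headers, the deposited tables of 6 pairwise comparisons hold raw counts per gene and library, each count divided by a size factor (a normalised signal, not used here), and the authors' own test results (log2 fold change, p-value, adjusted p). A further table holds the authors' FPKM values for 58735 genes, per the file headers, scaled by a total that the sources used here do not give. Labels of RNA preparation name trypsin harvest, RNeasy columns and a standard Illumina library, per the labels' protocols.

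Raw counts were merged over the 6 tables by gene identifier, giving 27412 genes with 0 conflicts; 4593 missing values, all at 0 FPKM, were entered as 0. Gene coordinates in the tables equal GENCODE release 29 for all 9 members. The test was that of edgeR 4.0.16 under R 4.3.3 (filterByExpr, trimmed mean of M values, robust quasi-likelihood F test, two-sided) in 1 model of 12 libraries and 4 groups without a replicate block, with 8 residual degrees of freedom. The filter kept 14950 genes with 99.9% of the counts (common biological coefficient of variation 0.0607). The 7 comparisons (6 pairwise and the interaction) were adjusted by Benjamini-Hochberg over all genes tested, and a gene was called at an adjusted p below 0.05. The SE was taken as the size of the log2 fold change over the root of its F statistic. Levels are given as mean ± SD (n = 3). The script was tested on simulated data with known changes. Replicates of a group differed by more than sampling noise, with a chi-square per gene from 2.19 to 14.1, so each was counted as 1 sample.

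All 9 members are named. Of each pathway list, the genes called against vehicle (at most the 5 with the smallest adjusted p) and the 2 with the highest FPKM are named, and for each called member the 3 tested genes with the highest correlation of log2 CPM (prior count 2). The 23 alternatives comprise DESeq2 1.42.0, size factors by relative log expression, no filter, only the 2 groups compared, a replicate block, limma 3.58.1 on log2(FPKM + 1) with and without a filter at a mean of 1 FPKM and on log2(FPKM + 0.1) (fold changes on these scales understate low genes), a correction for GC content and length (splines by mgcv 1.9.3) without and with the block, the omission of each library, and the correction without ZA library 1, which was chosen after seeing the data.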

Additional observations from a re-analysis of the deposited data

How the results depend on the processing

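Of 1280 values of single members recomputed over 23 alternatives, 1137 kept direction and call, 56 uncalled values changed sign without a call, 32 lost and 53 gained a call, and 2 uncalled values changed sign and gained a call. The last 2 were TIMP1 in ZA and in BITC+ZA against vehicle, at −0.13 each after the GC and length correction without ZA library 1. Of 345 recomputed calls of listed genes, 280 held, 65 were lost and 0 reversed.

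The number of the 8 members called in BITC against vehicle (2) was 4 with only the 2 groups compared and 5 with the correction without ZA library 1, and 2 to 4 on leaving out 1 library. Of all genes, 9.77%, 7.96% and 0.667 to 9.79% were called in these settings, against 1.78% as reported. In ZA against vehicle (0) it was 1 with the correction without ZA library 1, and 0 to 3 on leaving out 1 library. The shares of all genes there were 5.47% and 0.00655 to 16.3%, against 1.06% as reported. In BITC+ZA against vehicle (2) it was 5 in DESeq2, 5 with only the 2 groups compared, 4 with the GC and length correction, 5 with that correction without ZA library 1, and 2 to 5 on leaving out 1 library. In the same order, 2.98%, 19.4%, 10.0%, 13.6% and 1.89 to 14.6% of all genes were called, against 4.90% as reported. In BITC+ZA against BITC (1) it was 2 with only the 2 groups compared, 0 in each of the 3 limma analyses, 0 with the GC and length correction, and 0 to 2 on leaving out 1 library. All-gene shares there were 27.7%, 0.149 to 15.1%, 11.3% and 3.43 to 26.9%, against 14.7% as reported. In BITC+ZA against ZA (3) it was 5 with the GC and length correction, with or without ZA library 1. Of all genes, 1941 of 14946 were called with that library and 1943 of 15271 without it, against 1039 of 14950 as reported. In ZA against BITC (3) and the interaction (0) it was 5 and 1 with the correction without ZA library 1. The shares of all genes were 15.5% and 5.23%, against 10.5% and 2.84% as reported. The cause of these shifts was not tested.

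Libraries with the same replicate number correlated weakly: over 18 such pairs the correlation of deviations was −0.0668 to 0.0653, with 0 above 0.1. Still, 8 of 12 libraries correlated best with their own number, so whether the numbers pair the libraries was not settled. With the replicate block, 4 members were called in BITC+ZA against vehicle, beside 842 of all 14950 genes tested. With the block and the GC and length correction, 4 were called there, 0 in BITC+ZA against BITC and 5 in BITC+ZA against ZA. In the same order, 1461, 1641 and 1883 of all 14946 genes were called with block and correction. As reported, these were 732, 2205 and 1039 of 14950.

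With 3 libraries a group, small changes such as those of PLAUR, TIMP1 and TIMP2 lie near the threshold, and counts of 57 or fewer limit MMP1. Changes were measured in 1 cell line at 1 time, so they are relative levels of messenger RNA in these dishes.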

Other observations

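Lysosomal proteases and transcription factors known to act on protease genes were read from 2 of the 6 lists. Of 18 cathepsins, legumain and cystatins tested, 1 was called against vehicle: CTSL, the cysteine protease cathepsin L, rose from 64.4 ± 3.74 CPM to 79.4 ± 5.05 with BITC+ZA (log2 fold change 0.30, SE 0.07, adjusted p = 0.00711 by edgeR), which was no longer called on leaving out library 3 of vehicle (adjusted p = 0.0799) or of BITC+ZA (0.0876). With BITC alone it stood at 75.9 ± 4.70 CPM, which did not pass (0.24, SE 0.07, adjusted p = 0.0664). With BITC and with ZA, edgeR called 0 of the 18, with 3 in each at an unadjusted p below 0.05. DESeq2 called 1 with BITC and 0 with ZA, beside 1.38% and 1.68% of all 27412 genes with counts. CTSZ and CTSD, the most abundant at 128 and 85.6 FPKM, were not called against vehicle.

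Of 20 AP-1, ETS and RUNX factors tested, FOS rose with BITC, and FOSB and FOS rose and ELK3 and ETS1 fell with BITC+ZA. FOSB, a subunit of AP-1, rose from 4.26 ± 0.197 to 9.34 ± 0.929 CPM (1.13, SE 0.16, adjusted p = 5.23e-05 by edgeR) and FOS, another subunit, from 22.3 ± 1.18 to 32.1 ± 1.31 (0.53, SE 0.09, adjusted p = 0.000548) with BITC+ZA, and both calls held in all 23 alternatives. With BITC, FOS was at 28.5 ± 1.87 CPM (0.35, SE 0.09, adjusted p = 0.0341), a call lost without any one vehicle, BITC or BITC+ZA library (0.0574 to 0.2). ELK3 fell from 187 ± 5.38 to 161 ± 5.01 CPM (−0.22, SE 0.05, adjusted p = 0.0131), a call lost without vehicle library 3 or BITC+ZA library 2 or 3 (0.0531 to 0.0919). ETS1 fell from 297 ± 3.88 to 263 ± 1.52 CPM (−0.17, SE 0.04, adjusted p = 0.0169), a call lost without vehicle library 1 or 2 or any BITC+ZA library (0.0574 to 0.0843). FOSL1 and JUND, the most abundant at 244 and 50.7 FPKM, were not called against vehicle. With ZA, edgeR and DESeq2 called 0 of the 20, with 4 at an unadjusted p below 0.05.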
